A study of Mus musculus with 2 samples.

Results

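The genes described here encode the subunits of the proteasome and the proteins that regulate or assemble it, as expressed in E14TG2a mouse embryonic stem (ES) cells. Members were the protein-coding genes whose symbol starts with Psma, Psmb, Psmc, Psmd, Psme, Psmf or Psmg followed by a number and at most 1 letter, which gave 49 of the 28592 genes in the table. The series holds 1 group of 2 replicates of this male line, which is deficient in Hprt, grown in 2i/LIF, a medium with inhibitors of MEK and GSK3 and with leukaemia inhibitory factor that keeps ES cells in the naive ground state. Total RNA depleted of ribosomal RNA was sequenced with stranded libraries, and each gene has 1 FPKM value (fragments per kilobase of transcript, relative to all mapped fragments) per replicate. There was no second condition, so levels were compared between genes within the same cells and no test between groups was possible. Separate cultures are not mentioned in the labels, and the replicate spread given here may therefore be only technical. That spread does not measure bias of FPKM between genes, such as from transcript length or shared reads, which was not assessed. Levels are given for each replicate or as mean ± SD (n = 2), and detected means that FPKM reached 1 or more in each replicate. A median FPKM over genes is the median of their means, and the SD beside it is that of the replicate medians.

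The 26S proteasome degrades proteins that carry ubiquitin chains. Its 20S core is a barrel of stacked rings, with outer rings of α subunits that gate the entrance and inner rings of β subunits, of which those encoded by Psmb5, Psmb6 and Psmb7 cut peptide bonds. The 19S cap recognises ubiquitin, removes it and unfolds the substrate with a ring of ATPases. In cells of the immune system, and in other cells exposed to interferon-γ, the products of Psmb8, Psmb9 and Psmb10 replace the catalytic subunits in newly made cores, and this immunoproteasome produces peptides suited to presentation on MHC class I molecules.

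Most proteasome genes were abundant. Of the 49 members 45 (91.8%) were detected, against 39.4% of all genes in the table and 50.5% of the 20741 protein-coding genes. An FPKM of at least 100 in both replicates was reached by 29 members (59.2%), against 4.69% of protein-coding genes. The median over members was 119 ± 1.57, with replicate medians of 121 and 119, and the median over all protein-coding genes, detected or not, was 1.21. Among detected genes only, the median was 148 for members and 13.6 for protein-coding genes. Together the 49 genes, 0.171% of those in the table, held 0.852% of the summed FPKM in replicate 1 and 0.864% in replicate 2. The 4 members that were not detected were the immunoproteasome genes Psmb8 and Psmb9, the thymoproteasome gene Psmb11 and the activator copy Psme2b.

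**Figure D1:**
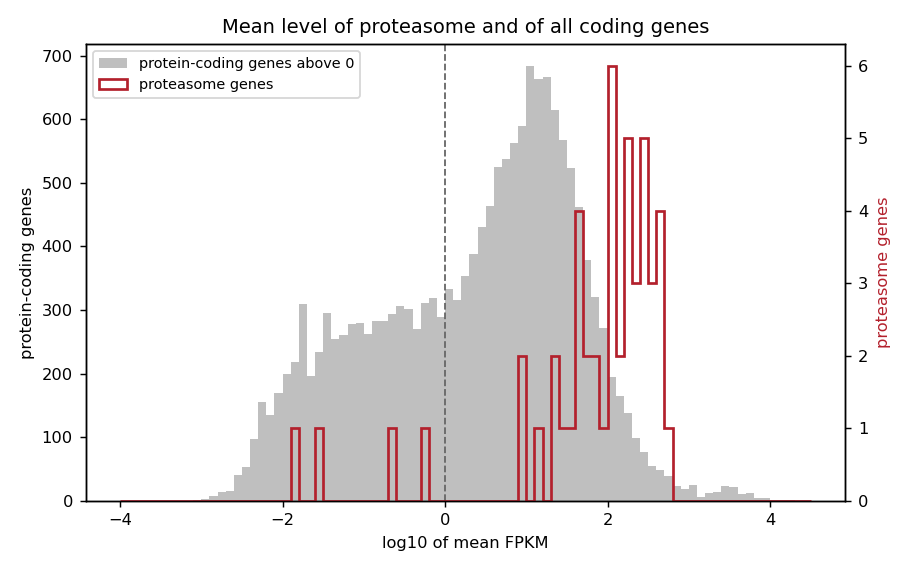
Histogram of log10 mean FPKM over both replicates, for protein-coding genes above 0 (grey, left axis) and for the 49 proteasome genes (red, right axis), with a dashed line at an FPKM of 1. The proteasome genes lie mostly to the right of the main peak of coding genes, and the 4 that were not detected stand apart to the left of the line.

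The cells carried the markers of their label. The marker counts that follow stand beside a share of 50.5% detected among protein-coding genes. All 6 naive ES cell markers were detected, among them Pou5f1 at 1005 and 947, Zfp42 at 388 and 377 and Nanog at 267 and 269 in replicates 1 and 2, with Esrrb at 98.4 and 90.8 and Klf4 at 13.6 and 11.4 lowest. Of 6 leukocyte markers 1 was detected, Laptm5 at 10.6 ± 0.512, while Ptprc, the pan-leukocyte phosphatase, stood at 0.0139 and 0.0582, Cd3e at 0.127 and 0.0845, and Cd79a was listed at 0 in both replicates. Tyrobp was at 0.0730 and 0.587 and Cd74 at 0.283 in both. The summed FPKM of the leukocyte list was 10.8 and 12.0. Of 6 fibroblast markers none was detected, and their summed FPKM was 0.367 in replicate 1 and 2.35 in replicate 2, with 5 of 6 higher in replicate 2 and Lum and Dcn at 0 in 1 replicate each. The highest of them were Col1a2 at 0.0101 and 0.917, Col1a1 at 0.0136 and 0.552 and Pdgfrb at 0.160 and 0.284. FPKM over the table summed to 946498 in replicate 1 and 928174 in replicate 2.

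The constitutive catalytic subunits were set against the immunoproteasome subunits that take their place. In each pair the constitutive gene was far above its counterpart in both replicates. Psmb5 (ENSMUSG00000022193.6, GRCm38 chromosome 14, 54614120 to 54617995), which carries the chymotrypsin-like activity, was at 171 in replicate 1 and 164 in replicate 2. Its counterpart Psmb8 (ENSMUSG00000024338.13, chromosome 17, 34198195 to 34201454), also called LMP7, was at 0.0183 and 0.0429. Psmb6 (ENSMUSG00000018286.6, chromosome 11, 70525324 to 70527858), with the caspase-like activity, was the highest of all 49 members at 607 and 559. Psmb9 (ENSMUSG00000096727.1, chromosome 17, 34182030 to 34187330), also called LMP2, stood at 0.229 and 0.230. These levels place Psmb6 at percentile 99.1 and Psmb9 at percentile 39.5 of protein-coding genes. Psmb7 (ENSMUSG00000026750.6, chromosome 2, 38588046 to 38643952), with the trypsin-like activity, was at 321 and 323, and Psmb10 (ENSMUSG00000031897.8, chromosome 8, 105935728 to 105938392), also called MECL-1, at 9.12 and 9.19. Psmb10 was thus the only immunoproteasome subunit detected, at percentile 69.2 of protein-coding genes and 39.9 and 40.0 times the FPKM of Psmb9 in replicates 1 and 2. In bulk RNA a low level in every cell and a higher level in a few cells cannot be told apart.

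The difference between constitutive and immunoproteasome subunits was 7.08 ± 0.05 in log2(FPKM + 1), averaged over the 3 pairs. For single pairs it was 7.35 ± 0.07 for Psmb5 over Psmb8, 8.89 ± 0.09 for Psmb6 over Psmb9 and 4.99 ± 0.00044 for Psmb7 over Psmb10. Each difference was many times the spread between the replicates. On the FPKM scale Psmb7 was 35.2 times Psmb10 in each replicate. Psmb10 thereby made up 2.76% of the summed FPKM of its pair in both replicates, Psmb9 made up 0.0376% and 0.0411% of its pair, and Psmb8 0.0107% and 0.0262%. The values of Psmb8 are so low that their ratio between replicates is uncertain, and the pseudocount of 1 understates the first 2 differences. It also narrows the SD of Psmb5 over Psmb8. On the FPKM scale Psmb5 was 9331 times Psmb8 in replicate 1 and 3820 times in replicate 2. With a pseudocount of 0.01 the first 2 differences were 12.1 and 11.2, in the order Psmb5 over Psmb8 and Psmb6 over Psmb9. Psmb11, the catalytic subunit of the thymus cortex whose gene lies 7314 bases from that of Psmb5, was at 0.0193 and 0.00641.

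**Figure D2:**
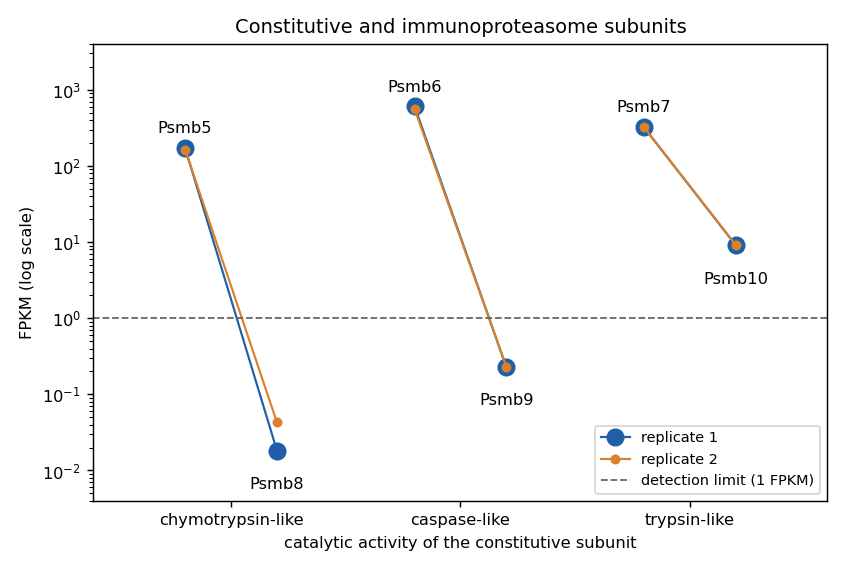
FPKM on a log axis for the constitutive catalytic subunit (left end of each line) and the immunoproteasome subunit that replaces it (right end), with 1 line per replicate and a dashed line at the detection limit. Psmb8 and Psmb9 lie below the limit and Psmb10 lies above it at 9.12 and 9.19.

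The sequences before the starts of these genes are shown because the members of each pair differ so widely in level. They come from RefSeq on GRCm38.p6 and run 5′ to 3′ on the strand of the gene, up to the base before its start. Capitals mark matches on either strand to 6 motif cores. These were TGACNNNGC (the antioxidant response element, bound by Nfe2l1 and Nfe2l2), GAAANNGAA (the interferon-stimulated response element), TTCNNNGAA (the gamma-activated site), CCAAT (the CCAAT box), GGGCGG (the GC box) and CCGGAAG (the ETS site). The window of Psmb9 is the whole interval of 225 bases between its start and that of Tap1, a peptide transporter gene on the other strand. That of Psmb6 is shortened to 217 bases so that it ends before the annotated gene. Psmb7 had no entry. The windows are chr14:54617996-54618245 (minus strand) for Psmb5, chr11:70525107-70525323 (plus) for Psmb6, chr17:34197945-34198194 (plus) for Psmb8, chr17:34187331-34187555 (minus) for Psmb9 and chr8:105938393-105938642 (minus) for Psmb10.
Psmb5: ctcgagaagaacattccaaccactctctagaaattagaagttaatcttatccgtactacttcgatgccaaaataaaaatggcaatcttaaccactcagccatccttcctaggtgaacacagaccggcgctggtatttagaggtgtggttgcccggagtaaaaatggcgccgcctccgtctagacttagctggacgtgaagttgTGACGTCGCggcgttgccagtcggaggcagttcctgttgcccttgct
Psmb6: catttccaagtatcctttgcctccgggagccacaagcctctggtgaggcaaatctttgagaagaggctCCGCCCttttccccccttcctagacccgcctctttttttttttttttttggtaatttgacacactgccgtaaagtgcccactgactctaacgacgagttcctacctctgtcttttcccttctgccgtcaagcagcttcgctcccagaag
Psmb8: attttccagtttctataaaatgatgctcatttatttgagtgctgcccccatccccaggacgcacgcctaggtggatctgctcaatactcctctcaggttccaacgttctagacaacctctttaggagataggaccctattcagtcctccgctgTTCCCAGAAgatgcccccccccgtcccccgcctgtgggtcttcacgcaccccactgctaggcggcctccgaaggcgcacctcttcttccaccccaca
Psmb9: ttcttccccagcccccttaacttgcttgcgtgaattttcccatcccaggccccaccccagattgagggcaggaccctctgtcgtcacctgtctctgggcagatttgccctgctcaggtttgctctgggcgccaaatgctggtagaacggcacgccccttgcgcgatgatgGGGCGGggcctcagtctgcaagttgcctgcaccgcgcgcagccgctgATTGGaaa
Psmb10: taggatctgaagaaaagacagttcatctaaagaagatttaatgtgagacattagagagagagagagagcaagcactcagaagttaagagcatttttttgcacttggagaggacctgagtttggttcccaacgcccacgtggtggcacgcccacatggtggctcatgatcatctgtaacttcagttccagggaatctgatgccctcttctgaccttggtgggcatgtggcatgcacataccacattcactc

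In the window of Psmb5 the antioxidant response element core lay 47 to 39 bases before the start, and a match to the same core lay 9 to 1 bases before the start that RefSeq lists for Psmb6 (tgacggagc). This match lies beyond the stretch shown and inside the annotated span of Psmb6. This core was found in 10.5% of the 17492 protein-coding windows of 250 bases. Psmb8 had a match to the gamma-activated site core 97 to 89 bases before its start, a core held by 6.69% of windows. Psmb9 had a GC box and a CCAAT box in reverse orientation, and none of the 6 cores was found in the window of Psmb10. Whether these cells use the listed starts was not tested, so other promoters of Psmb10 or of the other genes are not covered. The marked matches did not overlap one another, and a match of letters does not show that a factor binds there.

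The 14 constitutive 20S genes, Psma1 to Psma7 and Psmb1 to Psmb7, were all detected and all at 100 or more in both replicates. Their products occur in equal numbers in the core, but their FPKM values were not equal. They ran from Psmb2 at 105 and 100 to Psmb6 at 607 and 559, a ratio of 5.68 between the means, and the SD over the 14 genes was 0.66 in log2(FPKM + 1). The median was 312 ± 0.679. Among the 13 neighbours in their order of level only 4 had overlapping replicate values, namely Psma3 with Psmb3, Psma7 with Psma4, Psma6 with Psma1 and Psma1 with Psma5. The remaining steps exceeded the spread between the replicates, which does not cover bias of FPKM between genes.

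The genes of the α ring were more even than those of the β ring. The 7 genes of its constitutive subunits, which form the gate of the core, spanned 1.90-fold, from Psma5 at 247 and 250 to Psma3 at 458 and 488, with a median of 297 ± 7.17. Psma2 was close to Psma3 at 439 and 444, and the other 5 lay between 247 and 303 in both replicates. The 4 structural β genes, whose products have no protease activity, spanned 4.60-fold. Psmb3 was at 476 and 468, Psmb4 at 428 and 404, Psmb1 at 335 and 329 and Psmb2 at 105 and 100. The 3 catalytic genes spanned 3.49-fold, with Psmb5 lowest. Psmb2 and Psmb5 were the lowest of the 14, and their replicate values did not overlap those of any other 20S gene.

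**Figure D3:**
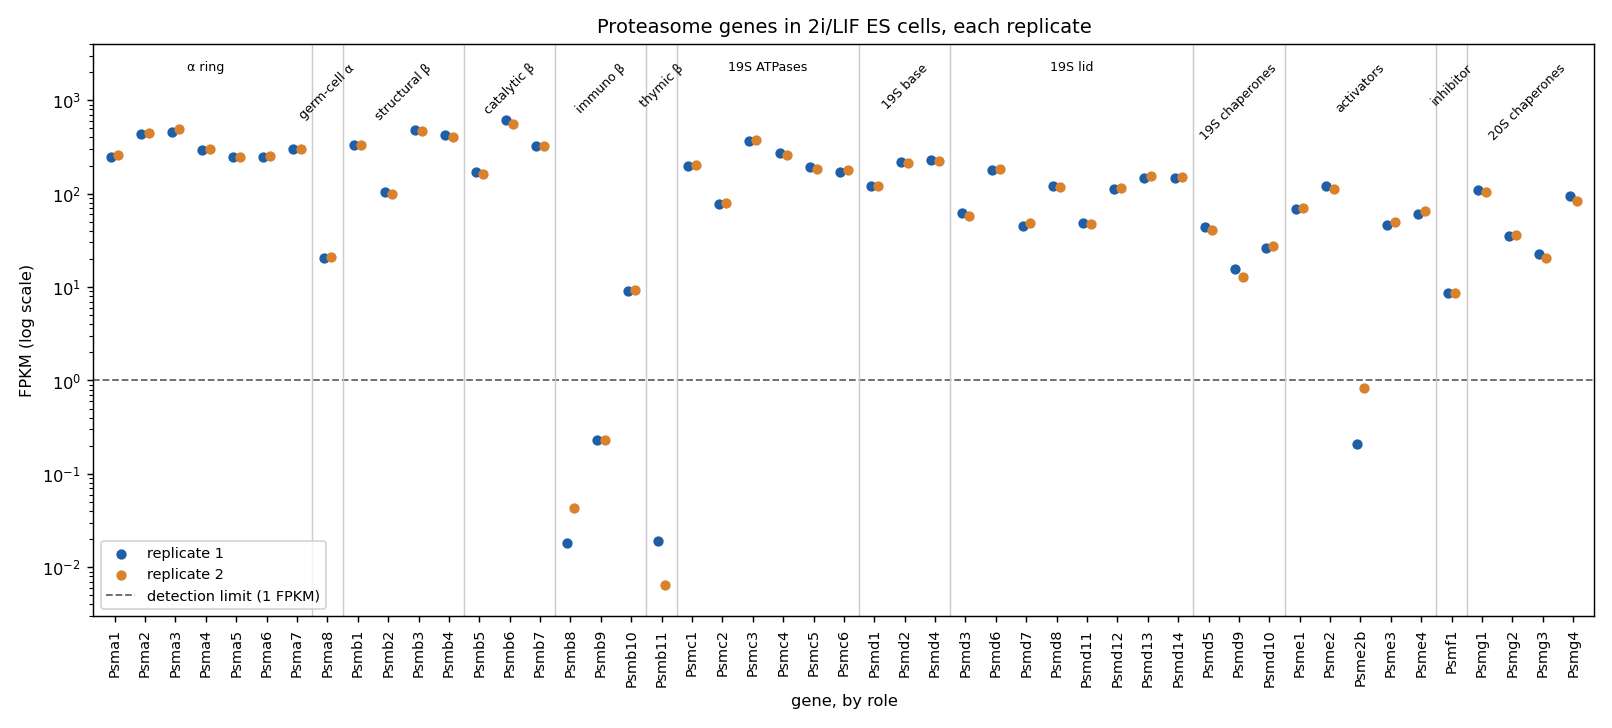
FPKM of the 49 members on a log axis, grouped by role, with 1 point per replicate and a dashed line at an FPKM of 1. The 20S genes of the constitutive core form the highest band, and Psmb8, Psmb9, Psmb11 and Psme2b fall below the line.

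Psma8, a paralog of Psma7 known from the proteasome of male germ cells, was detected at 20.3 and 21.0. It was at percentile 80.5 of protein-coding genes. Psma7 was at 303 and 302, and Psma8 made up 6.26% and 6.49% of the summed FPKM of this pair, so both replicates gave nearly the same share. Reads shared by these paralogs could be split between them, so the level of Psma8 is uncertain to that extent. Of 6 markers of male meiosis and germ cells 2 were detected, against 50.5% of protein-coding genes. They were the synaptonemal complex genes Sycp3 at 16.3 ± 0.464 and Sycp1 at 2.62 ± 0.0859. The meiotic initiator Stra8 was at 1.14 and 0.645, the nuclease gene Spo11 at 0.0761 and 0.0942, Acrv1 at 0.0764 in replicate 1 and 0 in replicate 2, and the protamine gene Prm1 was listed at 0 in both. The summed FPKM of this list was 20.6 and 19.3, and its part in the level of Psma8 was not tested.

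All 17 genes of 19S subunits were detected, with a median of 150 ± 5.66. Constitutive 20S genes were higher than these by 1.05 ± 0.05, as the difference of the medians of log2(FPKM + 1), many times the spread between the replicates. A single 19S gene, the ATPase gene Psmc3, lay above the 20S median, and a single 20S gene, Psmb2, lay below the 19S median. The 6 ATPase genes, whose products pull substrates into the core, had a median of 195 ± 0.824. Psmc3 was at 370 and 374 and Psmc2 at 78.1 and 78.7, the extremes of a ring built from equal numbers of each, and their ratio was 4.75. Between them lay Psmc4 at 270 and 258, Psmc1 at 196 and 202, Psmc5 at 194 and 186 and Psmc6 at 171 and 181. Among the scaffold and receptor genes of the base, Psmd4, which encodes a ubiquitin receptor, was at 227 and 222 and Psmd1 at 122 in both replicates, with Psmd2 at 217 and 213 between them.

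The lid genes had the lowest median of the 19S subunit lists. The 8 genes had a median of 116 ± 0.351 and 5 of them reached 100 in both replicates. Psmd6 was highest at 178 and 185 and Psmd7 lowest at 44.8 and 48.3, with Psmd11 at 49.0 and 46.9 and Psmd3 at 61.7 and 58.0. Psmd14, the deubiquitinase that cuts ubiquitin chains from the substrate, was at 146 and 151. Psmd13 was at 146 and 154, Psmd8 at 120 and 119 and Psmd12 at 112 and 114. Psmd14 works as a dimer with Psmd7, and its FPKM was 3.25 times that of Psmd7 in replicate 1 and 3.13 times in replicate 2. The replicate values of Psmd7 and Psmd11 overlapped, so their order is not resolved.

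Caps other than the 19S particle open the core without ATP. Psme1 and Psme2 encode the interferon-inducible activator PA28αβ, and their genes lie on chromosome 14 with 5912 bases between them. Both were expressed in these cells, Psme1 at 68.0 and 69.3 and Psme2 at 121 and 111, so Psme2 was 1.78 and 1.61 times Psme1. Psme3, which encodes the nuclear activator PA28γ, was at 46.7 and 49.5. Psme1 and Psme2 together exceeded it by 0.88 ± 0.09 in mean log2(FPKM + 1), and their replicate values did not overlap those of Psme3. Psme4, which encodes the activator PA200, was at 60.7 and 64.6. The copy Psme2b was at 0.206 and 0.827, the widest relative gap between replicates among the activators. It is higher in replicate 2, as were 5 of the 6 fibroblast markers, whose part in it was not tested, and reads could be split between it and Psme2. The inhibitor gene Psmf1, which encodes PI31, was at 8.73 and 8.61, the lowest of the 45 detected members.

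The members that help to build the particle as chaperones had lower medians than the 20S and 19S subunits, 62.3 for the core and 27.1 for the base. The maturation factor Pomp, outside the member rule and not in these medians, was at 266 ± 8.34. Levels overlapped, as Psmg1 and Psmg4 lay above the 19S genes Psmc2, Psmd3, Psmd7 and Psmd11. The 4 member chaperones of the 20S core act as pairs. Psmg1 was at 110 and 104 and its partner Psmg2 at 35.4 and 35.9, a ratio of 3.10 and 2.90. Psmg4 was at 94.2 and 83.6 and its partner Psmg3 at 22.5 and 20.4, a ratio of 4.18 and 4.10. In both pairs the partners therefore differed by much more than the replicates did. The 3 chaperones of the 19S base had the lower median, with an SD of 0.923 between its replicate values. Psmd5 was at 44.5 and 40.7, Psmd10, also called gankyrin, at 26.4 and 27.7, and Psmd9 at 15.4 and 12.9.

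The replicates agreed closely for these genes. The median absolute log2 ratio between replicates, on the FPKM + 1 scale, was 0.06 over the 45 detected members and 0.08 over the 11253 detected genes. Where the mean reached 100 it was 0.05 over 29 members and 0.06 over 1053 genes. Detected members had a median log2 ratio of replicate 2 over replicate 1 of 0.01, with 24 higher in replicate 2 and 21 in replicate 1. The 5 largest absolute ratios were those of Psmd9 (-0.24), Psmg4 (-0.17), Psmg3 (-0.14), Psmd5 (-0.13) and Psme2 (-0.12), all of them lower in replicate 2. Of the 44 neighbours in the order of detected members 13 had overlapping replicate values.

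**Figure D4:**
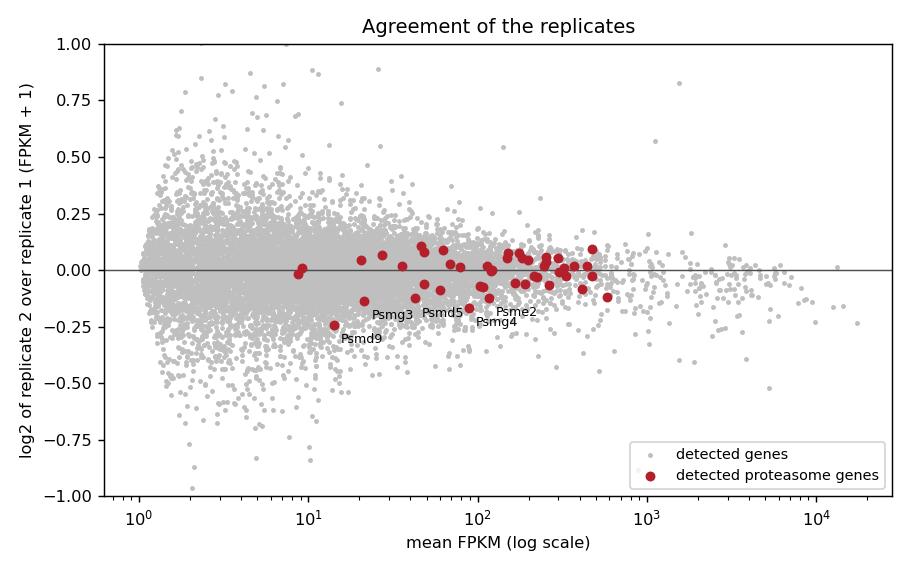
Log2 ratio of replicate 2 over replicate 1 (FPKM + 1) against mean FPKM on a log axis, for detected genes (grey) and detected proteasome genes (red). The proteasome genes lie close to 0, with Psmd9 farthest from it at -0.24, and 11 detected genes fall outside the plotted range.

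The wider pathway was described with lists of genes that are not members. Beside the counts given here, 50.5% of protein-coding genes were detected, and those had a median of 13.6. All 10 proteasome-associated genes in the table were detected, with a median of 39.4, and Paaf1 of that list had no row under this symbol. Pomp, the maturation factor of the 20S core, was at 266 ± 8.34, near the 20S subunits it works with. Sem1, a small lid subunit, was at 97.0 ± 2.54 and Txnl1 at 69.0 ± 1.33, while Zfand5 was at 29.8 ± 1.70 and Ecpas, which encodes the adaptor Ecm29, at 6.69 ± 1.33. All 4 ubiquitin and E1 genes examined were detected. The ubiquitin fusion gene Rps27a was at 3074 ± 81.3 and the polyubiquitin gene Ubb at 607 ± 32.6, whereas the E1 genes Uba1 and Uba6, whose products activate ubiquitin, were at 143 ± 1.17 and 24.5 ± 0.432. All 8 shuttle and segregase genes were detected too, from Vcp, the ATPase that extracts ubiquitinated proteins, at 151 ± 1.63, Rad23b at 117 ± 4.71 and Ubqln4 at 46.3 ± 0.685 down to Nploc4 at 13.9 ± 0.435 and Ubqln2 at 1.24 ± 0.183.

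Nfe2l1 is the transcription factor that raises proteasome gene expression when degradation fails. All 8 genes of its list were detected, against 50.5% of protein-coding genes. Their median was 15.9, near the 13.6 of detected protein-coding genes. Nfe2l1 was at 45.1 ± 0.0177, its relative Nfe2l2 at 38.6 ± 0.565 and their partner Mafg at 24.3 ± 0.617, with Maff at 3.90 ± 0.515 and Mafk at 1.55 ± 0.194 lowest. Neither of the Nfe2l genes differed by more than 1 FPKM between the replicates.

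Of 8 antigen processing genes 4 were detected, a share near the 50.5% of all protein-coding genes. They were the peptide-loading factor Tapbp at 11.3 ± 1.25, the MHC class I light chain B2m at 10.3 ± 0.128 and the heavy chains H2-K1 at 6.29 ± 0.563 and H2-D1 (outside the naming rule, given as the last of the 4) at 4.65 ± 0.824. The transporter genes Tap1 and Tap2, which lie beside Psmb9 and Psmb8 on chromosome 17, were not detected. Tap1 was at 0.552 and 0.882 and Tap2 at 0.0221 and 0.0440. Nlrc5, the activator of MHC class I genes, was at 0.0342 and 0.00831. In the run of 4 genes Psmb9, Tap1, Psmb8 and Tap2 (chromosome 17, 34182030 to 34216321), none reached 1 in either replicate.

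Of 11 interferon signalling genes examined 7 were detected, against 50.5% of protein-coding genes, with a list median of 2.96. Irf1, a factor known to activate Psmb8, Psmb9 and Tap1, was at 28.2 in both replicates and led the list. Irf9 was at 10.7 and 11.4 and Jak1 at 7.47 ± 0.143. Isg15, an interferon-induced gene, had 0 in replicate 1 and 0.0475 in replicate 2, and Irf2 was listed at 0 in both. With Cufflinks such a 0 can be a failed estimate.

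**Figure D5:**
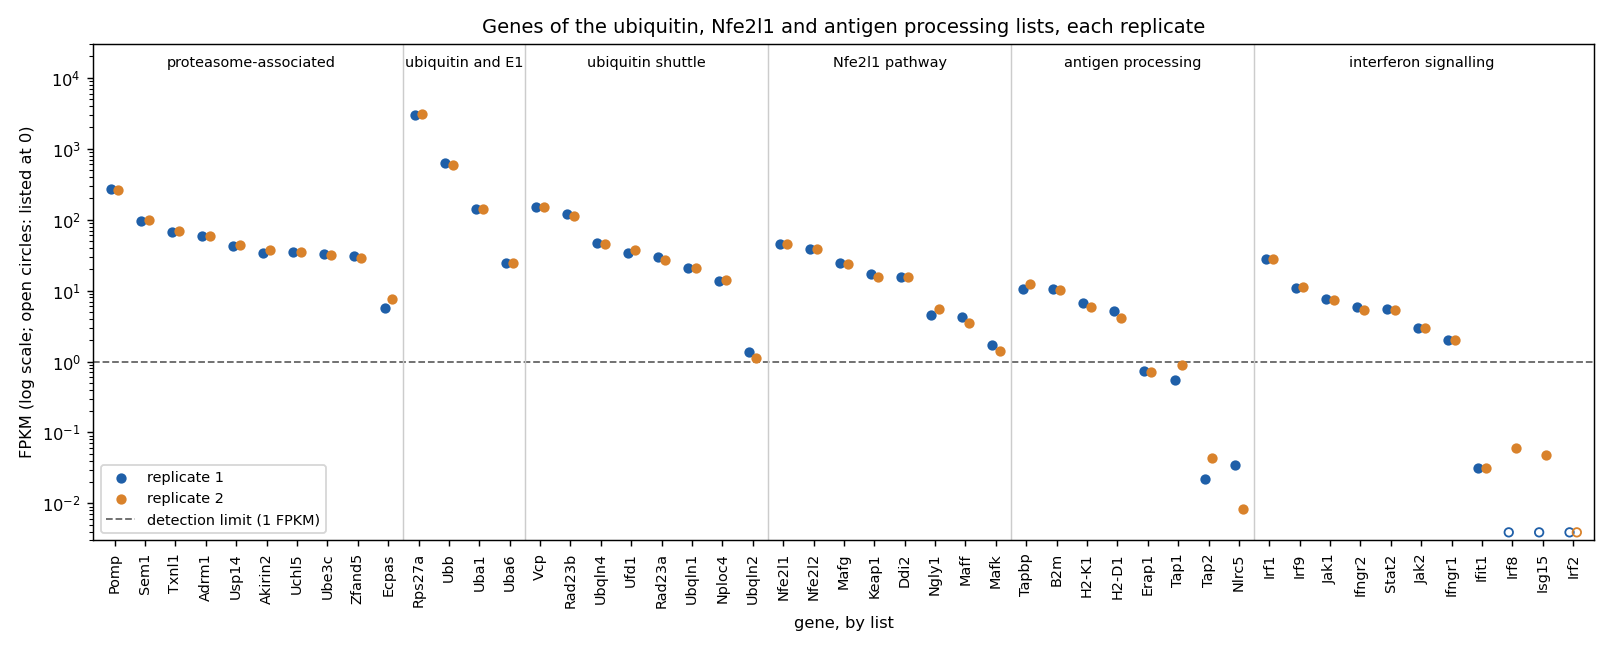
FPKM on a log axis for genes of 6 lists outside the member rule, with 1 point per replicate, open circles for values listed at 0 and a dashed line at an FPKM of 1. The first 4 lists lie wholly above the line, while the antigen processing and interferon signalling lists cross it.

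Windows of 250 bases before the first start that RefSeq lists were at hand for 41 of the 49 members, and Psma8, Psmb1, Psmb2, Psmb7, Psmc3, Psmd3, Psmd7 and Psmg2 had none. The ETS core was found in 11 of the 41 (26.8%), against 9.13% of protein-coding windows. It was in 8 of the 14 windows of 19S genes, among them Psmc1, Psmc2, Psmd2 and Psmd4, and in 0 of the 11 windows of constitutive 20S genes. The CCAAT box was in 14 of the 41 (34.1%, against 36.3%), with 6 of the 11 constitutive 20S windows and 4 of the 14 of 19S genes. The GC box was in 22 (53.7%, against 42.7%) and the antioxidant response element core in 5 (12.2%, against 10.5%), namely Psmb5, Psmb6 (the match within its annotated span), Psmc6, Psmd9 and Psmd12. The interferon-stimulated response element core was in 3 (7.32%, against 6.93%), Psmb3, Psmd4 and Psmd9. Extended by a further A at its 3′ end, that core was in 3 member windows and in 3.02% of protein-coding windows. The gamma-activated site core was in 2 (4.88%, against 6.69%), Psmb8 and Psmg1. These are counts of letter matches within these windows, with no test.

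The members were spread over 16 chromosomes, with 9 genes on chromosome 11 and 6 on chromosome 14. By RefSeq spans 13 members overlapped another gene, and for 8 of them that gene had a row in the table. The partners were low, from 9930111J21Rik1 over Psme2b at 0.0553 to Atg4a over Psmd10 at 5.51, with the lncRNA gene 3110056K07Rik over Psma3 at 3.59 and 6.34. The use of strand in counting is not given in the sources used here, so reads of such partners cannot be told apart.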

How the data were processed

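The 2 samples were assigned from their titles, and the columns by names equal to the samples' descriptions. The authors deposited FPKM per gene, made with CASAVA, TopHat2 and Cufflinks on mm10/GRCm38 per the submitters' processing notes. Versions, annotation release, use of strand, row filters and scaling were not given in the sources used here. Depth in reads is unknown: of 2288 genes under a mean FPKM of 0.1 and above 0 in both replicates, 66.8% had a replicate ratio that matched a fraction of whole numbers no larger than 8 (tolerance 0.01 on the log2 scale), against 14.0% of the log2 range from -3 to 3 that such fractions cover. The libraries may thus have like depth, but no counts were recovered.

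Symbols were matched by stable identifier (28256 of 28592 genes) and types by RefSeq symbol or an unambiguous synonym (84.9%). Levels were analysed in Python 3.11.15 with pandas 2.3.3 as FPKM or log2(FPKM + 1), which understates the differences of low genes. With 1 group no test was made. For some of the results, the functions returned values that were set by hand without noise for the members of a simulated table. This checks the arithmetic only. The members, lists and motifs were chosen with earlier results of these data known. Named were all catalytic, immunoproteasome, thymic and germ-cell members, activators, the inhibitor, chaperones, undetected members, the extremes of each other role, the 5 largest replicate ratios, and the 3 highest and 2 lowest genes of other lists. The interferon core was shortened by 1 base after its matches were seen. Some genes of the other lists are not reported here. Further genes were named after their values were seen. Alternatives covered pseudocounts, detection limits, a filter on low values, rescaling to TPM, centring, means and leaving out each replicate.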

Additional observations from a re-analysis of the deposited data

How the results depend on the processing

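Of 54 alternatives over 11 results 36 moved the value by less than the spread between the replicates, and 18 moved it further. A direction was reversed by 0 of them. For counts the limit was 1.5 times, and for the replicate ratio any change at 2 decimals. With 2 replicates, leaving out 1 moves a mean of the replicate values by less than their SD whatever the data. Such alternatives could only fall among the 36, as could the filter on low values for the SD among 20S genes. The count of detected members could not rise 1.5-fold. The number detected, the median level, the share of FPKM and the SD among 20S genes cannot change sign. With pseudocounts of 0.1 and 0.01 the difference between constitutive and immunoproteasome subunits was 8.75 and 9.49, that of Psmb5 over Psmb8 10.3 and 12.1, that of Psmb6 over Psmb9 10.8 and 11.2, and that of Psmb7 over Psmb10 5.12 and 5.14, since low values are compressed by a pseudocount of 1. The SD among constitutive 20S genes was 0.66 with both. Rescaled to TPM, the median member was at 127, the mean difference of the pairs was 7.14, Psmb5 over Psmb8 7.44, Psmb7 over Psmb10 5.0, and the median replicate ratio 0.036. Without members whose mean FPKM was under 1 the median member was at 148, and with means in place of medians 20S exceeded 19S genes by 1.15. Leaving out 1 replicate gave a median member of 119 or 121. The number of detected members was 45 at limits of 0.5, 1 and 5 FPKM and 47 at 0.1. No paired analysis was possible because the series has 1 group. The number of reads behind the low values of Psmb8, Psmb9, Psmb11 and Psme2b is unknown.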

Other observations

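The ratio of observed to expected CpG over 250 bases was 0.977 for Psmb5 and 0.624 for Psmb6, and 0.578 for Psmb8, 0.554 for Psmb9 and 0.220 for Psmb10, against medians of 0.690 over the member windows and 0.536 over all protein-coding windows. These windows of 250 bases reach into the annotated span of Psmb6 for Psmb6 and of Tap1 for Psmb9. The undetected members Psmb11 and Psme2b had ratios of 0.199 and 0.105, but Psma6 had 0.175 and Psmb4 0.379 at FPKM means of 253 and 416, and the undetected Psmb8 and Psmb9 lay above the median of all protein-coding windows.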
